A study of Mus musculus with 6 samples.

Results

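Keratins are the proteins of the intermediate filaments of epithelial cells. The members described here are all genes whose mouse symbol is Krt followed by a number. The genes of keratin associated proteins (Krtap) and Krtcap genes were left out. This gave 54 keratin genes, 28 of type I and 26 of type II, among 21959 genes with a usable value in both conditions.

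Primary colonic tumor cells with the Pak inhibitory domain (PID+) were set against tumor cells without it (PID-) by RNA-seq, and each condition had 3 samples. According to the methods, PID+ lines came from tumors of CDX2P-NLS-Cre;APC(Δ/+);ROSA26-PID mice and PID- lines from those of CDX2P-NLS-Cre;APC(Δ/+) mice. PID is the autoinhibitory stretch of Pak1, which blocks the kinase activity of Group I Paks. It is made as a GST fusion together with eGFP from the Rosa26 locus once Cre has removed a stop cassette. Both conditions therefore carry the CDX2P-NLS-Cre transgene, which acts mainly in the epithelium of the large intestine and distal small intestine, and an Apc allele that lost exon 14. Per the labels PID- samples are normal and untreated, whereas the methods describe both conditions as tumor cell lines. The methods give no age of the mice for the isolation of the lines.

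The methods speak of replicated sequencing runs where the labels name separate mice, and the authors merged the 3 sets of reads of a condition before FPKM were calculated. FPKM count fragments per length of transcript and size of library. For every gene a single pooled FPKM and the deposited bounds of its confidence interval stand for a condition, and values of single samples were not analysed here. The differences below could therefore not be checked in replicates, and they come without a p-value. The intervals cover the error model of CuffDiff, not the spread between mice. For genes at a mean FPKM of 10 or more, their median half-width was 75.1% of the FPKM in PID+ and 73.9% in PID- cells. Low FPKM of genes with a single transcript fell on steps, with 91.4% in PID+ and 90.5% in PID- cells lying at most 0.1 from whole reads. These shares count values well below 1 read as misses, beside 767 scored values in PID+ and 727 in PID- cells. Values without steps would give 20% for a step size set beforehand. Here the step size was chosen to make the shares largest, so 20% is too low a comparison. By these steps the FPKM added by 1 read in PID+ cells was 1.37 times that added in PID- cells. Since depth and scaling both enter this ratio, the depth of either condition is unknown. Changes are given as log2 of the ratio of FPKM + 1, PID+ over PID-, and on this scale the change of a gene with low FPKM comes out too small. Ratios without this pseudocount are called plain ratios.

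Keratin filaments are built from obligate pairs of an acidic type I and a basic type II chain, and a keratin without a partner of the other type is usually degraded. Cells of simple epithelia such as the colon pair Krt8 with Krt18, Krt19 and, in differentiated cells, Krt20. Basal cells of stratified epithelia pair Krt5 with Krt14, and other pairs mark the upper epidermis, wounded skin, the root sheath and the hair shaft. In the mouse the type I genes lie together on chromosome 11 and the type II genes on chromosome 15. Krt18 is the exception, a type I gene that lies beside the type II genes.

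Keratins were abundant in both conditions, and 4 simple epithelial genes supplied most of them. Summed over 54 genes, keratin FPKM was 10151 in PID+ against 6631 in PID- cells, which was 1.73% and 1.22% of the FPKM of all genes. The log2 ratio of these sums was 0.61, about the size of the factor that sets Gapdh FPKM equal (-0.63), so the higher total depends on the scaling. Krt7, Krt8, Krt18 and Krt19 together held 97.03% of this sum in PID+ and 88.9% in PID- cells. In each condition these 4 genes were among the 50 genes with the highest FPKM. At the other end, 37 keratins were below an FPKM of 1 in both conditions. Of these, 6 were listed at 0 in both conditions and 31 had values up to 0.772.

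At least 3-fold lower in PID+ cells were 2 of 28 type I keratins (Krt13 and Krt23) and 1 of 26 type II keratins (Krt83). Of all genes, 1.72% were that much lower. None of the 54 keratins was at least 3-fold higher on the scale with a pseudocount of 1, against 1.04% of all genes. A change of this size on this scale needs an FPKM of at least 2 in a condition, which 7 type I and 6 type II keratins had. Of the 11035 genes of the table with such an FPKM, 3.42% were at least 3-fold lower and 2.08% at least 3-fold higher. Deposited intervals were apart for 2 keratins, Krt23 and Krt83, against 0.729% of the 21942 genes with usable intervals. Among the 17 keratins with an FPKM of at least 1 in a condition, 11 were higher and 6 lower in PID+ cells, so 64.7% were higher, against 49.4% of all genes at that level. Their median log2 change was 0.44. The median over all genes at that level was -0.01. When Gapdh FPKM was set equal between the conditions, Krt6a, Krt7, Krt19 and Krt36 turned from higher to lower in PID+ cells.

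**Figure D1:**
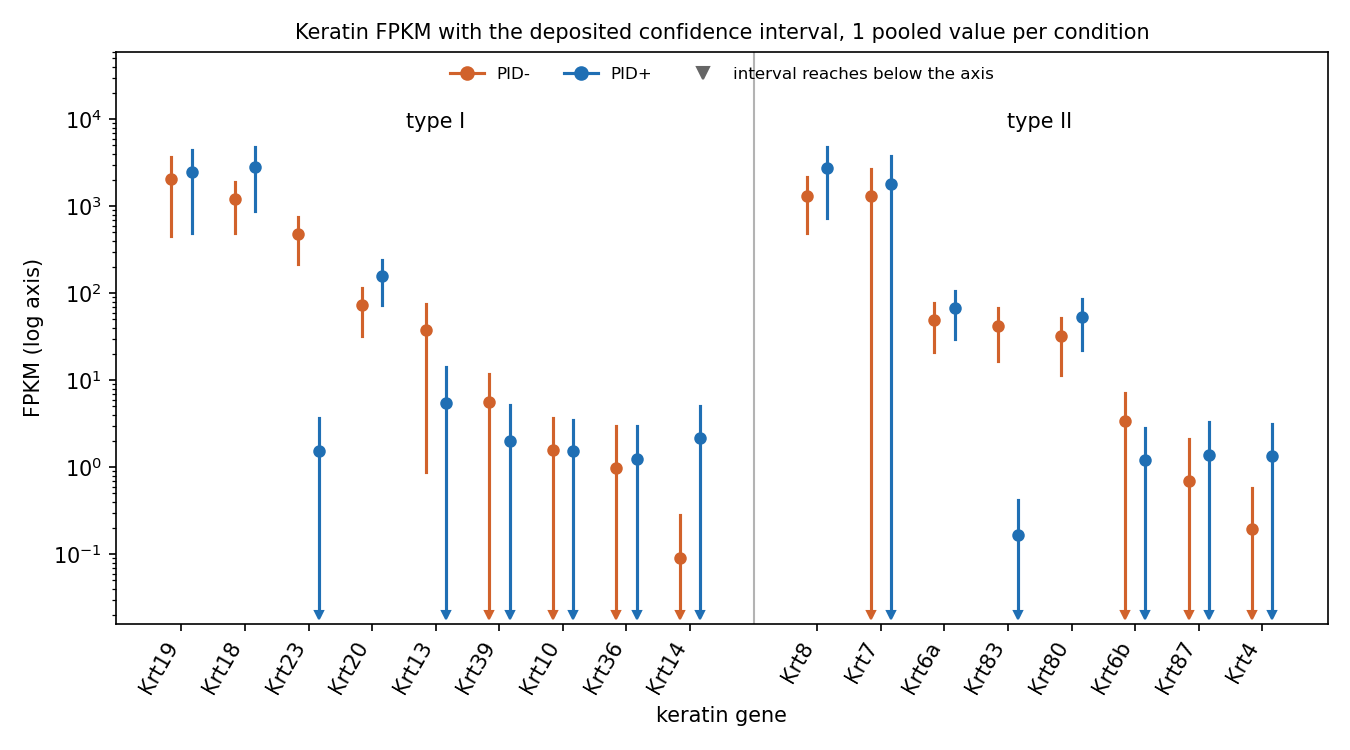
FPKM (log axis) of the 17 keratins with an FPKM of at least 1 in a condition, type I left and type II right, as 1 pooled point per condition with the deposited confidence interval as a line; triangles mark intervals that reach below the axis. Krt23 (483 in PID- and 1.55 in PID+ cells) and Krt83 (42.4 and 0.168) are the 2 genes whose intervals do not overlap.

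The most abundant pair of PID+ cells was Krt8 and Krt18, the first keratins made in the embryo and the basic pair of simple epithelia. Krt18 (ENSMUSG00000023043.6, chromosome 15 of GRCm38 from 102028180 to 102032027, plus strand) had an FPKM of 2843 in PID+ cells with bounds of 879.6 and 4807. In PID- cells it had 1199 with bounds of 486 and 1913. Its log2 change was 1.24, and its intervals overlapped. Krt8 (ENSMUSG00000049382.9, chromosome 15 from 101996698 to 102004482, minus strand) lies 23.7 kb from Krt18. Its FPKM was 2745 (738 to 4752) in PID+ against 1319 (488 to 2150.4) in PID- cells, and its log2 change 1.06. The pair thus kept a similar balance, with 0.966 Krt8 per Krt18 in PID+ against 1.10 in PID- cells by FPKM. Both changes stayed above 0 under each scaling tried, with 0.62 for Krt18 and 0.43 for Krt8 at equal Gapdh FPKM. Of the 50-base windows of the Krt8 transcript, 29.7% also occur in another gene, 26.9% in the processed pseudogene Krt8-ps, so part of its reads could not be placed with certainty.

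Krt19, Krt7 and Krt20 extend this set. Krt19 (ENSMUSG00000020911.11, chromosome 11 from 100140810 to 100148665) is the smallest keratin, found in crypt and ductal cells. It had 2469 (487 to 4450.1) in PID+ against 2073 (455 to 3691) in PID- cells. Krt19 was the most abundant keratin of PID- cells and ranked below Krt18 and Krt8 in PID+ cells. Krt19 per Krt18 was 0.868 in PID+ against 1.73 in PID- cells. Krt7 (ENSMUSG00000023039.13, chromosome 15 from 101411043 to 101430313), a keratin of ducts and glands that is usually low in normal colon, had 1793 (0 to 3768) in PID+ against 1303 (0 to 2673) in PID- cells. Intervals that start at 0 at this level leave the comparison of Krt7 without resolution. Krt20 (ENSMUSG00000035775.2, chromosome 11 from 99428403 to 99438150) marks differentiated cells of the intestinal surface and is used to trace colorectal tumors. Its FPKM was 158 (72.9 to 244) in PID+ against 73.5 (31.9 to 115) in PID- cells. The log2 change was 1.10, or 0.48 with equal Gapdh FPKM, and the intervals overlapped.

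By deposited FPKM Krt23 was lower in PID+ cells, whereas the other simple epithelial keratins were higher. At equal Gapdh FPKM Krt7 (-0.17) and Krt19 (-0.37) were lower as well. Krt23 (ENSMUSG00000006777.7, chromosome 11 from 99477974 to 99493137, minus strand) is a type I keratin known from colon tumors and stressed epithelia. Its FPKM was 1.55 in PID+ cells with bounds of 0 and 3.67. In PID- cells it was 483 with bounds of 216 and 749.9, so the intervals lay far apart. The log2 change of -7.57 was the lowest of all 21959 genes, and the plain ratio was 312 in favor of PID- cells. About 145 reads were estimated for Krt23 in PID+ cells, so the low value was not at the floor of 3 reads. In PID- cells Krt23 had rank 149 among all genes by FPKM, and in PID+ cells rank 10791. None of its 50-base windows occur in another gene.

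The remaining epidermal and mucosal keratins were low apart from Krt80, Krt6a and Krt13. Of 13 keratins of the upper layers of epidermis or mucosa, 9 were below 1 in both conditions, 2 of them at 0. Krt80 (chromosome 15 from 101347444 to 101370162), a type II keratin of many differentiating epithelia, had 53.9 (22.1 to 85.7) in PID+ against 31.9 (11.4 to 52.4) in PID- cells. Krt13 (ENSMUSG00000044041.4, chromosome 11 from 100117327 to 100121566), the type I keratin of internal stratified mucosa, had 5.53 (0 to 14.1) in PID+ against 37.6 (0.892 to 74.3) in PID- cells. Its log2 change was -2.56, but the intervals overlapped. Its usual partner Krt4 (chromosome 15 from 101918535 to 101924735) leaned the other way, with 1.34 (0 to 3.12) in PID+ against 0.196 (0 to 0.574) in PID- cells. Krt10 (chromosome 11 from 99385254 to 99389364), the keratin of the suprabasal epidermis, was nearly equal with 1.52 (0 to 3.53) and 1.60 (0 to 3.69).

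Keratins of basal cells and of wounded epithelium were low, with 1 exception. Krt14 (ENSMUSG00000045545.8, chromosome 11 from 100203162 to 100207548), the type I keratin of basal cells, had 2.18 (0 to 5.03) in PID+ against 0.0912 (0 to 0.279) in PID- cells. Its log2 change of 1.54 was just under the 3-fold line at 1.58, and its plain ratio was 23.9. Its partner Krt5 and the basal keratin Krt15 were below 1 in both conditions. The exception was Krt6a (ENSMUSG00000058354.6, chromosome 15 from 101689910 to 101694307), which is induced in wounded and hyperproliferative epithelium. It had 67.4 (29.6 to 105) in PID+ against 49.4 (20.9 to 78.0) in PID- cells. Its neighbor Krt6b (chromosome 15 from 101676023 to 101680287) had 1.21 (0 to 2.85) in PID+ against 3.38 (0 to 7.12) in PID- cells. Krt6a shares 43.6% of its 50-base windows with Krt6b, and Krt6b shares 44.5% with Krt6a, so their values are uncertain relative to each other. Counting every other gene, 61.96% of the windows of Krt6a and 50.09% of those of Krt6b are shared. These totals include antisense and miRNA genes outside a protein coding annotation, such as Gm49428 with 15.48% of the Krt6a windows. The protein coding Gm5478 shares 9.96% of the Krt6a and 9.33% of the Krt6b windows, so each value is also uncertain by itself. The type I partners of Krt6a, Krt16 and Krt17, were below 1 in both conditions. Krt17 and Krt75, a keratin of the companion layer named after its values were seen, were under 3 estimated reads in both conditions.

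Among 15 hair and nail keratins, 11 were below 1 in both conditions. Krt83 (ENSMUSG00000067613.5, chromosome 15 from 101485130 to 101491512, minus strand), a type II keratin of the hair cortex, stood apart from them. Its FPKM was 0.168 (0 to 0.419) in PID+ against 42.4 (16.4 to 68.4) in PID- cells, with intervals that did not overlap. The log2 change was -5.22, the seventh lowest of all genes, and the plain ratio was 253 in favor of PID- cells, with about 17.9 estimated reads in PID+ cells. Krt83 shares 23.2% of its 50-base windows with other keratins, 19.7% with Krt86. Krt86 had 0.0659 in PID+ against 0.478 in PID- cells, and Krt81, a further close relative, 0 and 0.0381. Krt39 (chromosome 11 from 99514114 to 99521338) had 2.01 (0 to 5.21) in PID+ against 5.65 (0 to 11.7) in PID- cells. Krt36 (chromosome 11 from 100102007 to 100105626) had 1.24 (0 to 2.98) and 0.986 (0 to 2.99), and Krt87 (chromosome 15 from 101431038 to 101438804) had 1.39 (0 to 3.28) and 0.698 (0 to 2.099). Of the windows of Krt87, 36.9% also occur in another gene. The 8 keratins of the inner root sheath were below 0.05 in both conditions, and 4 of them were listed at 0. The other 4 keratins, Krt42, Krt88, Krt90 and Krt222, reached at most 0.519.

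The pools of the 2 types were compared next, since the chains of a filament pair across the types. Type I FPKM summed to 5487 in PID+ against 3877 in PID- cells, a log2 ratio of 0.50 that turned to -0.12 with equal Gapdh FPKM. Type II FPKM summed to 4664 in PID+ against 2754 in PID- cells, a log2 ratio of 0.76, or 0.14 with equal Gapdh FPKM. Type I per type II was 1.18 in PID+ against 1.41 in PID- cells. Without Krt23 these ratios were 1.18 and 1.23, so the difference in balance between the conditions was smaller without this gene. No other keratin was left out on its own. Without the keratins that share 20% or more of their windows with other genes, Krt8 among them, the order turned, with 2.97 in PID+ against 2.90 in PID- cells.

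By pooled FPKM the make-up of each pool differed between the conditions. The intervals of Krt7, Krt8, Krt18 and Krt19 overlapped, so only the shares of Krt23 and Krt83 rest on FPKM with intervals apart. Within type I, Krt18 held 51.8% in PID+ against 30.9% in PID- cells, and Krt19 held 44.99% and 53.5%. Krt23 held 0.0282% and 12.5%. Within type II, Krt8 held 58.9% in PID+ against 47.9% in PID- cells, whereas Krt7 held 38.4% and 47.3%. Krt83 held 0.00359% and 1.54%.

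**Figure D2:**
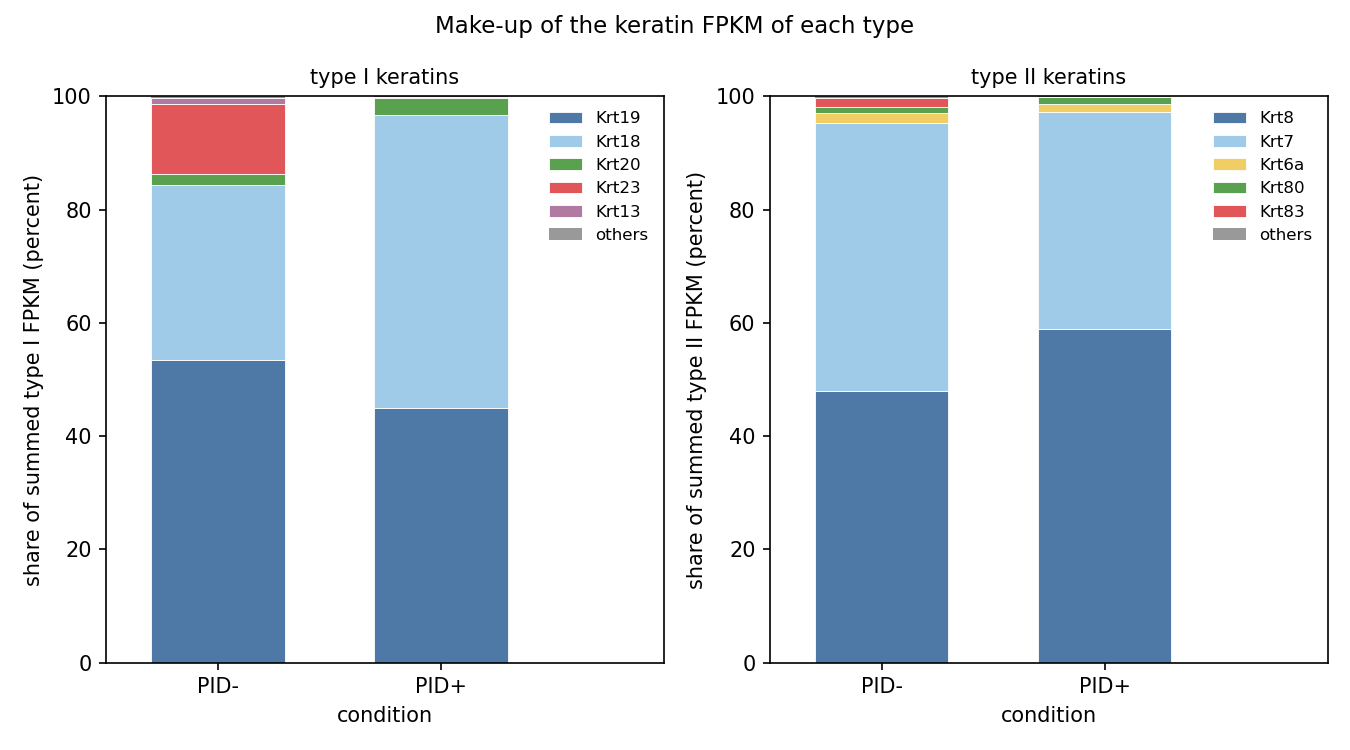
Share (percent) of the summed FPKM of type I (left) and type II (right) keratins held by each gene in PID- and PID+ cells, 1 pooled value per condition. Krt23 holds 12.5% of the type I pool in PID- and 0.0282% in PID+ cells, and Krt18 holds 30.9% and 51.8%.

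In bulk RNA fewer cells of a type and less RNA per cell cannot be told apart, so markers of epithelium and of other cell types are given beside the keratins. Each of 6 epithelial markers had a higher FPKM in PID+ cells, under each scaling tried. Their FPKM summed to 1392 in PID+ against 546 in PID- cells, and their median log2 change was 1.26. The most abundant was the tight junction gene Cldn4 with 432 and 216.5, and 2 were at least 3-fold higher: Cldn7 with 274 and 79.4, and Epcam with 400.5 and 124. With equal Gapdh FPKM none of the 6 was at least 3-fold higher. Of 7 fibroblast markers, 6 had a lower FPKM in PID+ cells and Lum was listed at 0 in both conditions. They summed to 2.92 in PID+ against 33.1 in PID- cells. Col1a2 had 0.0654 in PID+ against 11.9 in PID- cells, Col3a1 0.339 and 6.35, Dcn 0 (as listed) and 2.39, and Col1a1 2.32 and 11.9. Vim, the intermediate filament gene of mesenchymal cells and chosen after its values were seen, equalled 0.189% of the summed keratin FPKM in PID+ and 15.04% in PID- cells. The part of these markers in the keratin values was not tested.

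Markers of the colon were mostly low, although the cells came from colonic tumors. Of 10 such genes, 4 were below 1 in both conditions, among them Cdx1, listed at 0 in both, and Slc26a3, at 0.00446 in PID+ against 0 in PID- cells. The 10 genes, 4 of them higher and 5 lower in PID+ cells, summed to 125.3 in PID+ against 89.15 in PID- cells. The most abundant was the surface antigen Gpa33 with 119 in PID+ against 43.5 in PID- cells. At least 3-fold lower in PID+ cells were the intestinal cadherin Cdh17 (1.67 against 25.9), the intestinal regulator Cdx2 (0.542 against 8.04) and the carbonic anhydrase Car1 (listed at 0 against 5.55). Squamous markers summed to 66.8 in PID+ against 57.9 in PID- cells, nearly all from Pkp1 with 58.2 and 54.2. Of these 7 genes, which include Krt14 and Krt5, 6 had a higher FPKM in PID+ cells and 1 a lower, but 4 and 3 with equal Gapdh FPKM. The lower one was the squamous regulator Trp63 with 0.0227 and 0.175. Hair follicle markers summed to 5.54 and 3.98, led by Msx2 with 3.19 and 1.65, while the hair keratin regulator Hoxc13 was listed at 0 in both conditions. Smooth muscle markers summed to 5.77 in PID+ against 12.97 in PID- cells, led by Acta2 with 4.39 and 9.76. Leukocyte markers summed to 21.9 and 17.1, nearly all Cd68 with 21.8 and 16.8, and 6 of 7 were below 1, with Cd3e at 0. Endothelial markers summed to 3.77 and 1.12, of which Kdr gave 3.33 and 1.01. With equal Gapdh FPKM the sums of the colon, squamous, hair follicle and leukocyte markers turned lower in PID+ cells. Their log2 ratios were then -0.13, -0.42, -0.15 and -0.27.

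Keratins that lie side by side had like changes in some places, as in Krt8 (1.06) and Krt18 (1.24), and unlike ones in others. Krt7 (0.46) and Krt87 (0.49) were close on the scale with a pseudocount of 1, but their plain ratios were 1.38 and 1.99. With equal Gapdh FPKM their log2 changes were -0.17 and 0.16. Of the 54 keratins, 27 lie on chromosome 11 between 99232761 and 100269871 and 27 on chromosome 15 between 101347444 and 102032027. Genes at a mean FPKM of 5 or more had a median log2 change of 0.04 on chromosome 11 (810 genes) and 0.19 on chromosome 15 (381 genes). Krt23 lies between Krt20, 39.8 kb away with a log2 change of 1.10, and Krt39, 20.98 kb away with -1.15. The 4 genes other than keratins within 500 kb of Krt23 and with that mean FPKM ranged from -1.64 (Igfbp4) to 1.60 (Tns4). Krt83 lies 5.14 kb from Krt86, and the 4 such genes within 500 kb of it ranged from 0.03 (Atg101) to 1.15 (Nr4a1). Krt13 lies 10.2 kb from Krt15, which had 0.772 in PID+ against 0.646 in PID- cells, and the 9 such genes within 500 kb ranged from -0.39 to 0.77. Of 56 Krtap genes in the table, 35 were listed at 0 in both conditions, and the highest value was 4.57.

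**Figure D3:**
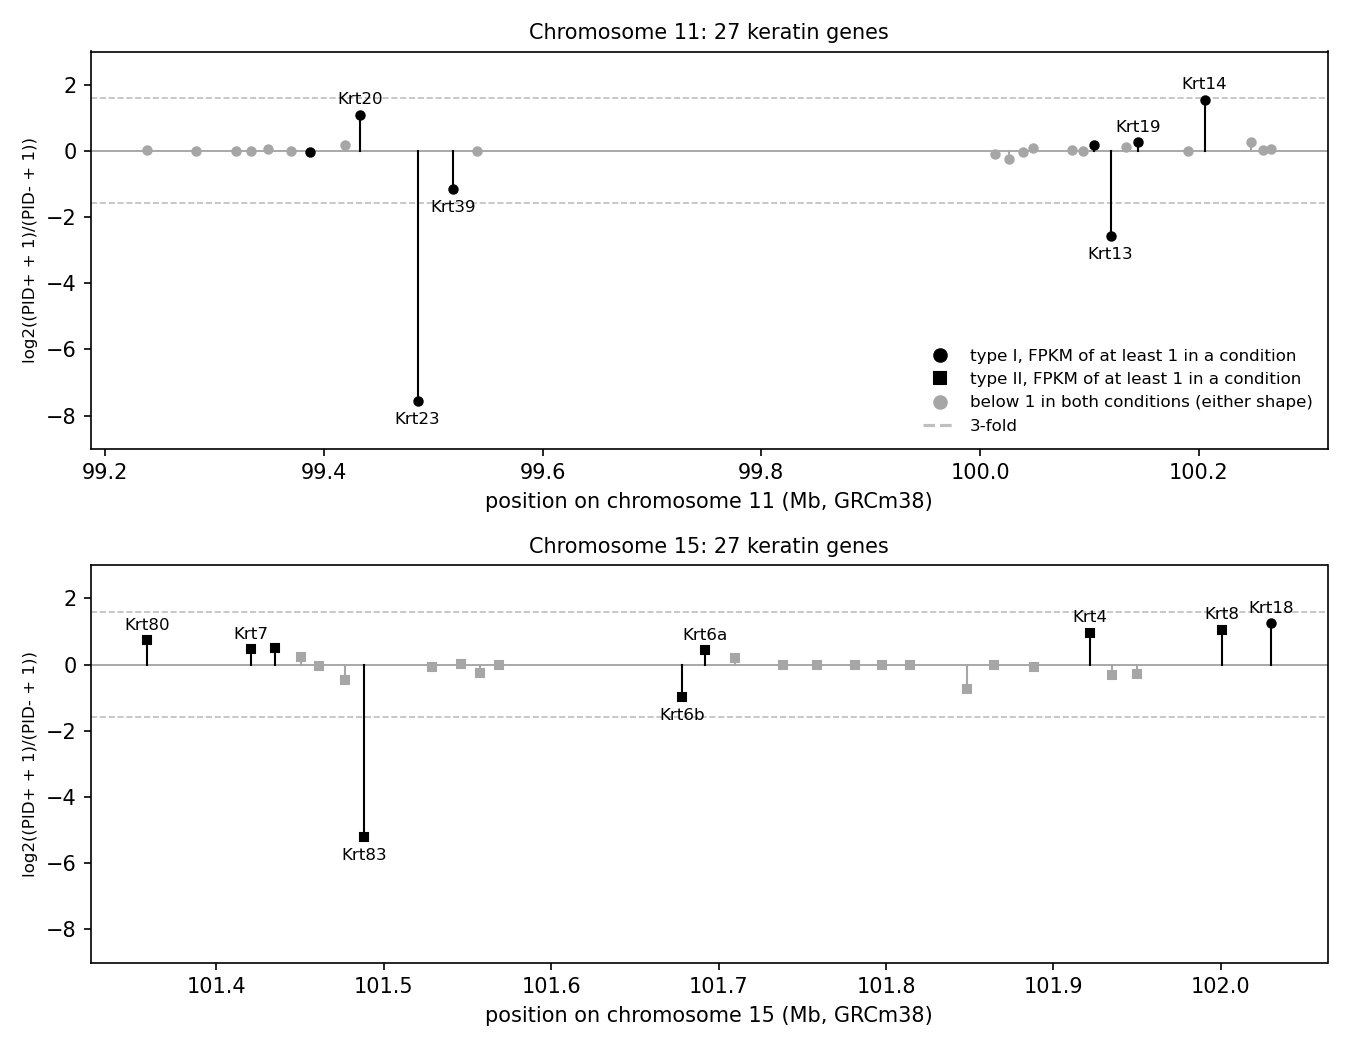
Log2 change, PID+ over PID- with a pseudocount of 1, of each keratin against its position (Mb) in the 2 clusters on chromosomes 11 and 15, with genes below an FPKM of 1 in both conditions in gray and the 3-fold lines dashed. Krt23 (-7.57) lies between Krt20 (1.10) and Krt39 (-1.15), and Krt83 (-5.22) between Krt86 (-0.47) and Krt84 (-0.08).

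The promoters of keratins were searched for letters that factors of epithelial cells are known to bind. RefSeq (GRCm38.p6) gave 37 promoters, 250 bases before to 50 after the start, for 36 of the 54 keratins. Among the keratins with an FPKM of at least 1, Krt4, Krt6a, Krt6b, Krt19, Krt80, Krt83 and Krt87 had no promoter there and were not searched. The letters CACCTG, an E-box bound by Snai and Zeb factors, occurred on either strand in 15 of the 37 (40.5%) and in 20.2% of all 32851 promoters. TATAAA occurred in 19 (51.4%) and in 13.6% of all promoters, and overlaps its own reverse complement in Krt8. The AP-1 letters TGACTCA occurred in 1 (2.70%), a start of Krt13, and in 5.20% of all promoters. Such a match is a description and no evidence of binding. The promoters of Krt8 and Krt18, the pair that was higher together, and of Krt23, with the lowest log2 change, each hold CACCTG and are shown 5′ to 3′ with the matches in capitals. That of Krt8 is on the minus strand (chr15:102004293-102004592), that of Krt18 on the plus strand (chr15:102027966-102028265) and that of Krt23 on the minus strand (chr11:99493071-99493370).
Krt8: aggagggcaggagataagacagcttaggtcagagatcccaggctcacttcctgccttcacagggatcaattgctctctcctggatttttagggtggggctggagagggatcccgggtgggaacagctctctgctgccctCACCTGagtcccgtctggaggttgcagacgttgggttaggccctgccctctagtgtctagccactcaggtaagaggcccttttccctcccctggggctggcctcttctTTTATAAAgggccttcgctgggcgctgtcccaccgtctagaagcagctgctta
Krt18: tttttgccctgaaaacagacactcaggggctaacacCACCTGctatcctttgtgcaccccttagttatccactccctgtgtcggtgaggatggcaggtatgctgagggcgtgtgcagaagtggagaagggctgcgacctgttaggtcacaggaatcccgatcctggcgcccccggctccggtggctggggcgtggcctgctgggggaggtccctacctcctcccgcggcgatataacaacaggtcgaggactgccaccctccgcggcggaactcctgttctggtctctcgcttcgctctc
Krt23: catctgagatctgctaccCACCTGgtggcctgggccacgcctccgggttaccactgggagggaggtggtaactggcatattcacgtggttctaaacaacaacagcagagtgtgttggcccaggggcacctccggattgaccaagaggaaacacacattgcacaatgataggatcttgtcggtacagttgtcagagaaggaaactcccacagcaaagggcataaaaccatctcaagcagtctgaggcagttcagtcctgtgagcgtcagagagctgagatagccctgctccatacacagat
The E-box began 111 bases before the RefSeq start in Krt8, where it lies within the Gencode span of the gene, 214 before it in Krt18 and 232 before it in Krt23. Of the 11 promoters of named keratins 6 hold these letters, and those of Krt13, Krt14, Krt20 and Krt36 do not. The only promoters searched for Krt14 and Krt7 lie wholly within the Gencode spans of these genes. The bases before those spans were not searched.

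Linkers and other partners of keratins were expressed in both conditions. Of 12 such genes, 9 had a higher and 3 a lower FPKM in PID+ cells, but 4 and 8 with equal Gapdh FPKM. The most abundant was plakoglobin (Jup) with 85.6 in PID+ against 64.5 in PID- cells. At least 3-fold higher were envoplakin (Evpl), a linker of the cell envelope, with 15.7 (6.52 to 24.8) against 3.33 (0.63 to 6.04), the desmosomal plakophilin Pkp3 with 55.8 against 16.3, and stratifin (Sfn), a 14-3-3 protein of epithelia, with 49.03 against 13.1. The intervals of Evpl did not overlap. With equal Gapdh FPKM none of the 12 was at least 3-fold different.

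Genes of the cornified envelope, which keratins meet in the upper epidermis, differed by gene. Of 14, 10 had a higher and 4 a lower FPKM in PID+ cells, but 8 and 6 with equal Gapdh FPKM, and 6 were below 1 in both conditions. Sprr1a, a crosslinked envelope protein, was the most abundant with 827 in PID+ against 464 in PID- cells. The crosslinking enzyme Tgm1 was at least 3-fold higher in PID+ cells (48.8 against 13.96), though not with equal Gapdh FPKM. At least 3-fold lower were Sprr2b (0.146 against 7.95), Sprr2d (2.80 against 11.5) and Sprr2h (7.68 against 116), and the intervals of Sprr2h did not overlap. How far these related genes share reads was not analysed here.

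Regulators tied to keratin genes differed by gene. Of 12 regulators of epithelial keratins, 4 were below 1 in both conditions, among them Trp63. Elf3, an epithelial Ets factor and the most abundant in PID+ cells, had 103 (43.8 to 163) against 26.3 (8.61 to 44.05) in PID- cells, where Ehf led with 74.2 against 44.2 in PID+ cells. Grhl2, which maintains epithelial junction genes, had 31.1 against 7.38 and was, with Elf3, at least 3-fold higher in PID+ cells, although neither was with equal Gapdh FPKM. Klf4, named after its values were seen, had 8.50 against 22.2 and was the only one of the 12 at least 3-fold lower with equal Gapdh FPKM. Of 9 regulators of hair keratins, 2 had a higher and 6 a lower FPKM in PID+ cells. None was at least 3-fold different on the scale with a pseudocount of 1. The plain ratios of Lef1 and Trps1, named after their values were seen, passed 3-fold in opposite directions at FPKM below 1. Lef1 had 0.00461 in PID+ against 0.456 in PID- cells, and Trps1 0.244 against 0.0353. The most abundant of the 9 was Foxq1 with 12.1 in PID+ against 16.5 in PID- cells.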

How the data were processed

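The authors used CutAdapt for adapters and TopHat with Bowtie2 for alignment to GRCm38.p3 and a protein coding annotation, did not search for unannotated junctions, and merged the 3 sets of reads of a condition. CuffDiff then gave the deposited FPKM and interval bounds, with compatible hits normalization. The labels describe a poly A selected library. Rows called treated were taken as PID+, which could not be checked on the transgene because it has no row. Genes with a status other than OK (7) were dropped. Intervals with an upper bound below the FPKM (17 genes) were not compared.

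Symbols, positions and 50-base windows came from Gencode M21 (GRCm38). Reads were estimated from FPKM steps and are approximate for genes with several transcripts. Each keratin with an FPKM of at least 1 in a condition was named. From the other lists, the most abundant gene in each condition and genes at least 3-fold different were named; further genes were named after their values were seen. A gene of the epithelial marker list is not reported here and was left out of its counts and sums. The members and lists were chosen with earlier results of these data known. The code that calls changed genes was run on a copy of the PID- values in which 200 genes were changed by more than 3-fold. It recovered 100% of these and called 0 other genes. As no noise was added, this outcome was fixed in advance and gives no rate of false calls in the data. Python 3.11.15, numpy 2.4.6, pandas 2.3.3 and matplotlib 3.10.9 were used.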

Additional observations from a re-analysis of the deposited data

How the results depend on the processing

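The 3 keratins at least 3-fold lower in PID+ cells were the same 3 genes under equal total, upper quartile or Gapdh FPKM, with chromosome medians subtracted and when a mean FPKM of 5 was required. With a pseudocount of 0.1 the number of type II keratins at least 3-fold lower was 3 rather than 1, with Krt1 and Krt86 (named after their values were seen) beside Krt83, and 1 type I keratin (Krt14) and 1 type II keratin (Krt4) were at least 3-fold higher rather than 0. Each of these 4 genes lies below an FPKM of 1 in at least 1 condition, where the pseudocount weighs most. With keratins restricted to those with under 20% of their windows in another gene, Krt83 was left out by construction, the number of type II keratins at least 3-fold lower was 0, and that of keratins with intervals apart was 1 rather than 2. As Krt8 was also left out, the type I to type II ratio turned its order, with 2.97 in PID+ against 2.90 in PID- cells.

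Gapdh had an FPKM of 2570.3 in PID+ against 1666 in PID- cells. Setting it equal moved the median log2 change of genes with an FPKM of at least 1 by -0.56. The log2 ratio of summed FPKM was then -0.12 for type I and 0.14 for type II, and the split of all genes at least 3-fold different went from 229 higher and 377 lower to 76 and 662. Of the 17 named keratins, 13 kept their sign under equal Gapdh FPKM and all 17 under the other scalings, the pseudocount and the chromosome correction. No paired analysis was possible because the table holds pooled values. Without values per sample, differences between mice cannot be separated from differences between conditions.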
